A study of Mus musculus with 2 samples.

Results

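Small leucine-rich proteoglycans are secreted matrix proteins built from a short core of leucine-rich repeats, most of which carry chondroitin, dermatan or keratan sulphate chains. Here 8 genes of this family were followed, namely Dcn, Bgn, Aspn, Lum, Fmod, Prelp, Ogn and Podn, chosen by symbol among the 32285 genes of the count tables. All 8 were found, and each matched a single row. The samples were suspensions of dorsal skin from male C3H/HeN mice, which were shaved at 7 weeks of age and whose skin was taken at 9 weeks. The control library (Con) came from animals given vehicle, and the other library came from animals injected subcutaneously with testosterone propionate (TP) at 0.5 mg daily, a model of androgenetic alopecia. Each library pooled the skin of 15 mice, so an animal cannot be told from its pool mates, and each condition is 1 library. There is therefore no replicate, no test between Con and TP was possible, and the intervals below, all at 95%, cover counting error only.

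In skin these proteins sit on collagen fibrils. Decorin and its relatives bind the surface of fibrils of type I and type III collagen and limit their width, and several of them also bind growth factors of the TGF-β family or cell surface receptors. Class I of the family holds decorin (Dcn), biglycan (Bgn) and asporin (Aspn). Class II holds lumican (Lum), fibromodulin (Fmod) and prolargin (Prelp), which carry keratan sulphate or basic N-terminal stretches. Class III holds osteoglycin (Ogn, mimecan), and podocan (Podn) belongs to a smaller class of its own. Dermal fibroblasts are the best known source of most members.

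Droplet sequencing of transcript 3′ ends gave 39076 kept cells with 106811803 UMIs (unique molecular identifiers, each a captured transcript) for Con and 18542 cells with 132873387 UMIs for TP. The median cell held 2049 UMIs in Con and 4832.5 in TP, so shares of cells with a UMI are given after each cell was thinned to 1000 UMIs. The libraries shared 184 barcodes among kept cells. Clustering without the members gave 29 clusters, of which 20 took 1 of 16 class names from their markers and 9 stayed unnamed. All 10 markers of dermal fibroblasts (DFs) were detected in the DF-like cluster, which held 211 Con and 645 TP cells, or 0.540% and 3.48% of each library. Dermal papilla cell-like (DPC-like) cells numbered 3889 and 1346, and dermal sheath cell-like (DSC-like) cells 326 and 137. In a pool of dissociated skin, fewer cells of a type and poorer release of that type from the tissue cannot be told apart. Levels are UMIs of a gene per 1000000 UMIs of the class (CPM). As 1 transcript gives 1 3′ end, CPM needs no scaling by length.

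Several members are neighbours in the genome. On the GRCm38.p6 assembly, Dcn (ENSMUSG00000019929, chr10:97479500-97518163) lies beside Lum (ENSMUSG00000036446, chr10:97565501-97572703), followed by Kera and Epyc of the same family. Aspn (ENSMUSG00000021388, chr13:49544443-49567565) and Ogn (ENSMUSG00000021390, chr13:49608015-49624501) share a cluster with Ecm2 and Omd. Prelp (ENSMUSG00000041577, chr1:133910304-133930102) and Fmod (ENSMUSG00000041559, chr1:134037254-134048280) share another with Optc. Bgn (ENSMUSG00000031375, chrX:73483601-73495936) and Podn (ENSMUSG00000028600, chr4:108014793-108031954) stand apart from them. Spans are those of the RefSeq gene, matched by symbol.

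Aspn and Ogn are shown with their proximal promoters as a pair of neighbours with unlike ratios between the libraries in DF-like cells. Prelp and Fmod had unlike ratios as well (1.03 and 0.229), but their promoters are not printed. The sequences are the 250 bases before the RefSeq start, 5′ to 3′ on the plus strand of GRCm38.p6, at chr13:49544193-49544442 for Aspn and chr13:49607765-49608014 for Ogn. RefSeq promoters of 6 of the 8 members were matched. The motifs TATAAA (the TATA box core), AGAACA (the half-site of steroid hormone receptors) and TGANTCA (AP-1) were searched on both strands, and capitals mark TATAAA or its reverse complement, which overlap in Ogn.
Aspn: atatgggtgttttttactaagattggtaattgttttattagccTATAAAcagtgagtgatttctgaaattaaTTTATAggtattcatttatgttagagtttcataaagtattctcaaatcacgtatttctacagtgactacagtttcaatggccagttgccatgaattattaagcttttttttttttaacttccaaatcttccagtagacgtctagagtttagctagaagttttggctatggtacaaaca
Ogn: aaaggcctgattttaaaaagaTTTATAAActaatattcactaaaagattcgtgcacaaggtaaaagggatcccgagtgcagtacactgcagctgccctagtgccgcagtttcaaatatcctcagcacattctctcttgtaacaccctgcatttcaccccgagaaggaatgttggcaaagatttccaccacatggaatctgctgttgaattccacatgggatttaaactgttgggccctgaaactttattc
Each window held TATAAA 2 times, at 207 and 178 bases before the start in Aspn and at 229 and 227 bases before it in Ogn, counted to the first base of the match. Neither held AGAACA or TGANTCA. Of the 32851 RefSeq promoter windows of this length, 12.4% held TATAAA, 16.1% AGAACA and 6.75% TGANTCA. A match of letters is a description and not a binding site.

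Among classes with at least 50 cells, DF-like cells had the highest level of Dcn, Lum, Prelp, Ogn and Podn in both libraries, although for Prelp in Con the interval of their ratio to the Myh11 and Acta2 cluster held 1. Bgn was highest in DSC-like cells in both, and the top of Aspn and Fmod lay among DF-like cells, DSC-like cells and the unnamed clusters led by Myh11 and Acta2 or by Dkk2 and Gpc5. In epithelial cells Dcn stood out in the germinative layer of the hair bulb, and Bgn reached 80.0 CPM in Con and 85.8 CPM in TP in the outer bulge.

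**Figure D1:**
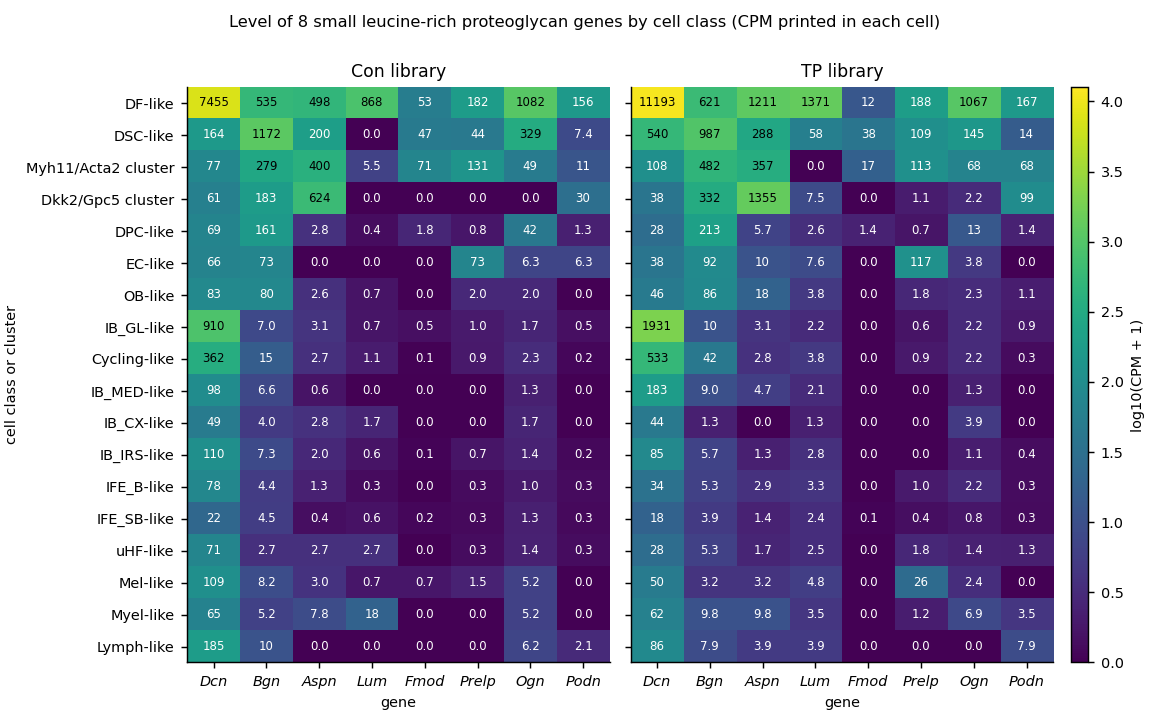
Level of the 8 genes in 18 cell classes or clusters (rows) of the Con library (left) and the TP library (right), as CPM printed in each cell and coloured on a scale of log10(CPM + 1). The DF-like row is bright for most genes in both libraries, and the IB_GL-like row is bright for Dcn alone, at 910 CPM in Con and 1931 CPM in TP.

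Decorin, the best studied member, was the most abundant one. In DF-like cells Dcn had a level of 7455 CPM in Con and 11193 CPM in TP. The next class was the germinative layer (IB_GL-like), with 909.5 CPM and 1931 CPM, so that DF-like cells stood 8.20-fold (7.84 to 8.57) above it in Con and 5.80-fold (5.65 to 5.95) in TP. Cycling cells followed with 362 CPM in Con and 533 CPM in TP. In Con the interval of their ratio to the Edar- and Ntn1-led epithelial cluster next to them (350 CPM) held 1, and so did that of DSC-like over cycling cells in TP (539.6 against 533 CPM). Of the 211 DF-like cells in Con, 129 belonged to subcluster 1, described below. The members summed to 3726 CPM there in Con, against 16939 CPM in DF-like cells without subclusters 1 and 7.

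Biglycan, which carries a pair of glycosaminoglycan chains and is also read by Toll-like receptors, was found in several mesenchymal classes. In DSC-like cells, the contractile sheath around the follicle, Bgn reached 1172 CPM in Con and 987 CPM in TP. DF-like cells came next with 535 CPM and 621 CPM, and the cluster led by Myh11 and Acta2, genes of smooth muscle, had 279 CPM and 482 CPM. The cluster led by Dkk2 and Gpc5 had 332 CPM in TP from 308 UMIs, and held only 35 cells in Con. DPC-like cells, the signalling centre at the base of the follicle, had 161 CPM and 213 CPM. Endothelial cell-like cells had 72.7 CPM and 91.7 CPM, and the outer bulge (OB-like) had 80.0 CPM and 85.8 CPM. The inner root sheath (IB_IRS-like), whose 7.27 CPM and 5.70 CPM serve as the measure of free RNA, stood below OB-like cells. Cycling cells were also above it, with 15.0 CPM in Con and 42.2 CPM in TP, and so was the Edar- and Ntn1-led cluster, with 18.5 CPM and 26.5 CPM. After thinning, 6.80% (4.78 to 9.33) of OB-like cells in Con and 6.96% (5.65 to 8.45) in TP had a Bgn UMI. The share in IB_IRS-like cells was 0.849% in Con and 0.817% in TP, where median depths were 1778 UMIs in Con IB_IRS-like cells and 1855 UMIs in Con OB-like cells. DPC-like cells held 43.6% of all Bgn UMIs in Con and 23% in TP, and DF-like cells 7.21% and 39.5%.

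Asporin, which binds collagen and TGF-β and restrains mineral deposition, was shared by several mesenchymal groups. Its level was 498 CPM in Con and 1211 CPM in TP in DF-like cells. The cluster led by Dkk2 and Gpc5 had 624 CPM and 1355 CPM, though with only 35 cells in Con against 300 in TP. The Myh11 and Acta2 cluster had 400 CPM and 357 CPM, and DSC-like cells 200.1 CPM and 288 CPM. In DPC-like cells Aspn was nearly missing, at 2.82 CPM in Con and 5.73 CPM in TP. In Con the interval of DF-like over Myh11 and Acta2 cells held 1, at 1.24-fold (0.959 to 1.63).

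Lumican, a keratan sulphate carrier of skin and cornea, was the member closest to being a DF gene alone. DF-like cells had 868 CPM of Lum in Con and 1371 CPM in TP, and they held 84.8% and 93.8% of all its UMIs. DSC-like cells had no Lum UMI among 944513 UMIs in Con, which allows up to 3.18 CPM, and 57.9 CPM in TP. The class next to DF-like cells stood 47.4-fold (22.8 to 119) lower in Con and 23.7-fold (17.6 to 32.6) lower in TP.

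Fibromodulin, which guides the crosslinking of collagen, was scarce. In all kept cells it had 123 UMIs in Con and 108 in TP. Its level was 53.1 CPM in Con and 12.1 CPM in TP in DF-like cells and 46.6 CPM and 38.2 CPM in DSC-like cells. In Con the Myh11 and Acta2 cluster (71.2 CPM), DF-like cells and DSC-like cells could not be ordered, as both intervals held 1.

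Prolargin, which binds heparan sulphate and collagen and anchors basement membranes, reached beyond fibroblasts into vessels. Prelp had 182 CPM in Con and 188 CPM in TP in DF-like cells. Endothelial cell-like (EC-like) cells had 72.7 CPM and 117 CPM, DSC-like cells 44.5 CPM and 109 CPM, and the Myh11 and Acta2 cluster 131 CPM and 113 CPM. In TP the latter 3 groups could not be ordered. Among EC-like cells the subcluster led by Ccl21a and Lyve1, genes of lymphatic vessels, had the most Prelp, with 139.6 CPM in Con from 20 cells and 213 CPM in TP from 72 cells. Another, led by the keratins Krt16 and Krt71, held 61 of the 122 EC-like cells in Con and 42 of the 225 in TP. Melanocyte-like cells had 2 Prelp UMIs in Con, or 1.5 CPM, and 33 in TP, or 26.4 CPM.

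Osteoglycin, which takes part in fibril assembly, had a level of 1082 CPM in Con and 1067 CPM in TP in DF-like cells. DSC-like cells had 329 CPM and 145 CPM, and DPC-like cells 42.1 CPM and 12.7 CPM. Within DPC-like cells Ogn was held by the subcluster led by Sfrp2, with 433 of the 478 Ogn UMIs of that class in Con and 82 of 106 in TP. Its level in that subcluster was 87.4 CPM in Con and 49.8 CPM in TP.

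Podocan, which binds type I collagen and slows smooth muscle growth, was the rarest DF gene after Fmod. DF-like cells had 156 CPM in Con and 167 CPM in TP. The Dkk2 and Gpc5 cluster had 30.4 CPM from 2 UMIs in Con and 99.1 CPM from 92 UMIs in TP. The Myh11 and Acta2 cluster had 11.0 CPM in Con, also from 2 UMIs, and 68.0 CPM in TP from 12 UMIs.

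Whole libraries were compared first, since the study asked how androgen reshapes the skin. Dcn had 206 CPM in Con and 552 CPM in TP, a ratio of 2.68 (2.64 to 2.72). Bgn had 39.2 CPM and 58.4 CPM, a ratio of 1.49 (1.43 to 1.54). Aspn had 7.54 CPM and 60.0 CPM, a ratio of 7.96 (7.40 to 8.57). The 3 members of class I were thus all higher in the TP library, Aspn by the widest margin.

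In class II, Lum had 5.41 CPM in Con and 54.3 CPM in TP, a ratio of 10.0 (9.22 to 10.9). Prelp had 2.4 CPM and 9.40 CPM, a ratio of 3.92 (3.43 to 4.50). Fmod had 1.15 CPM and 0.813 CPM, a ratio of 0.706 (0.540 to 0.922), and was the one member that was lower in TP. Ogn had 15.1 CPM in Con and 42.8 CPM in TP, a ratio of 2.84 (2.68 to 3.0), and Podn 1.29 CPM and 7.68 CPM, a ratio of 5.95 (4.97 to 7.16). At least 2-fold higher in TP were 6 of the 8 members, against 8.12% of the 17560 genes that reached 50 UMIs when the libraries were added. None of the 8 was at least 2-fold lower, against 10.5% of those genes. The median log2 ratio was 1.74 over the members and −0.23 over all genes tested.

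Class shares also differed between the libraries. DF-like cells held 0.529% of the UMIs of kept cells in Con and 3.72% in TP. They held 19.1% of all Dcn UMIs in Con and 75.4% in TP, 34.9% and 75.0% of Aspn, and 38.0% and 92.7% of Ogn. With the UMI shares of the Con clusters set in both libraries, the ratios became 1.24 for Dcn, 1.14 for Bgn, 1.88 for Aspn, 2.09 for Lum, 0.628 for Fmod, 1.51 for Prelp, 0.653 for Ogn and 1.40 for Podn. Ogn thus changed direction, and only Lum kept a ratio above 2. With TMM factors, which move the median log2 ratio of all genes from −0.23 to 0.02 here, every whole-library ratio is larger by 1 over 0.840. As a mean over cells of ln(counts per 10000 + 1), Dcn had a ratio of 0.955, below 1, and the other members kept their directions.

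**Figure D2:**
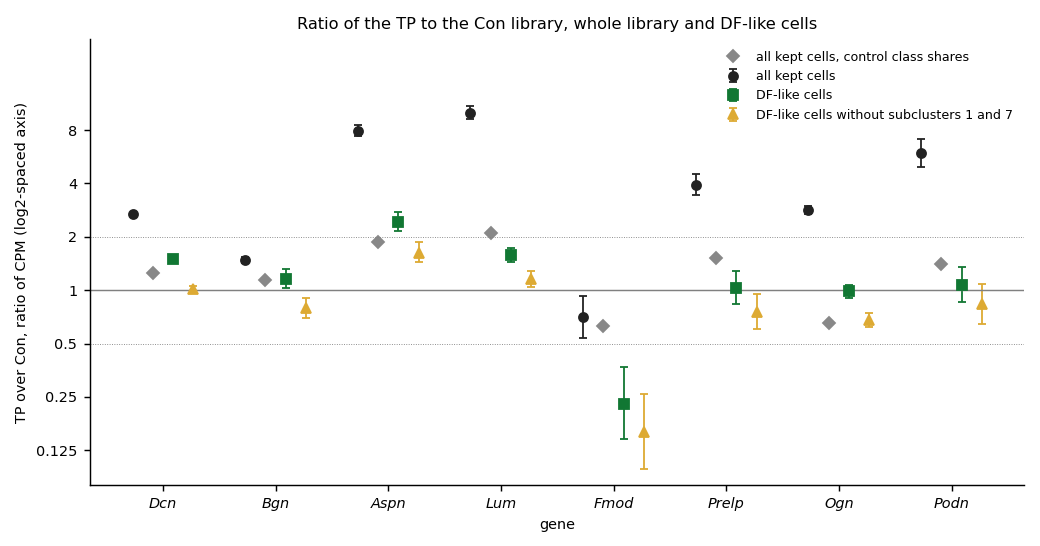
Ratio of TP over Con for each gene on a log2-spaced axis, with exact 95% intervals for counting error, in all kept cells (circles), with the Con class shares in both libraries (diamonds, no interval), in DF-like cells (squares) and in DF-like cells without subclusters 1 and 7 (triangles). The line marks 1 and the dotted lines 2 and 0.5. The circles of 7 genes lie above 1, while the squares lie nearer to 1 for all genes but Fmod, whose DF-like ratio is 0.229.

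Within DF-like cells the ratios of all members but Fmod lay nearer to 1. In class I the ratio was 1.5 (1.46 to 1.55) for Dcn, 1.16 (1.03 to 1.31) for Bgn and 2.43 (2.16 to 2.75) for Aspn. In class II it was 1.58 (1.44 to 1.73) for Lum, 1.03 (0.840 to 1.28) for Prelp and 0.229 (0.145 to 0.367) for Fmod, which rested on 30 UMIs in Con and 60 in TP. Ogn had a ratio of 0.986 (0.906 to 1.07) and Podn 1.07 (0.858 to 1.35), and for these 2 and Prelp the interval held 1. With TMM factors within the class the ratio was 1.29 for Ogn and 2.07 for Lum, which then passed 2-fold. In this class those factors move the median log2 ratio of all genes from −0.24 to 0.15, past 0. Aspn was the 1 member of 8 at least 2-fold higher in TP, against 4.13% of 9173 genes, and Fmod the 1 at least 2-fold lower, against 9.21%. The median log2 ratio was 0.16 over the members and −0.24 over all genes.

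Some neighbours in the genome had unlike ratios in these cells and others like ones. In the Aspn and Ogn cluster, whose promoters are printed above, Aspn had 281 UMIs in Con and 5979 in TP and Ogn 611 and 5269, which gave the ratios of 2.43 and 0.986. Of the other family members in the cluster, Ecm2 had 202 CPM in Con and 276 CPM in TP and Omd 77.9 CPM and 64.8 CPM. Dcn and Lum, adjacent on chromosome 10, had the nearby ratios of 1.5 and 1.58, and Prelp and Fmod on chromosome 1 had ratios of 1.03 and 0.229.

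The DF-like cluster was not uniform, and its make-up differed between the libraries. It divided into 7 subclusters. Subcluster 1, led by Pax7, Chodl and Calcr together with the root sheath keratins Krt25 and Krt71, held 129 of the 211 Con cells and 146 of the 645 TP cells, with a median of 1502 UMIs in Con. All 10 DF markers were detected there, at a summed 21564 CPM in Con and 31340 CPM in TP, against 85136 CPM and 100907 CPM in DF-like cells without subclusters 1 and 7. Krt71, a gene of the inner root sheath, stood in it at 898 CPM in Con and 168 CPM in TP. Subcluster 7 held 11 Con and 20 TP cells. It had no Pdgfra and no Dpt UMI and 171 CPM and 56.2 CPM of Dcn, but 342 CPM and 421 CPM of Ogn, from 6 and 15 UMIs.

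Without subclusters 1 and 7 there were 71 Con and 479 TP cells, and the summed members stood at 16939 CPM in Con and 16976 CPM in TP. The ratio was then 1.02 (0.985 to 1.05) for Dcn, 0.791 (0.697 to 0.902) for Bgn, 1.63 (1.43 to 1.86) for Aspn and 1.15 (1.04 to 1.28) for Lum. It was 0.754 (0.601 to 0.957) for Prelp, 0.158 (0.0976 to 0.260) for Fmod, 0.681 (0.622 to 0.747) for Ogn and 0.831 (0.645 to 1.09) for Podn. Bgn, Prelp and Podn thus crossed 1, for Podn with an interval that held 1. Without TMM factors the level of Dcn differed by less than counting error, and Aspn, still higher in TP, was no longer at least 2-fold higher. With the TMM factor of these cells every ratio is larger by 1 over 0.853. That takes Dcn above its interval, while Bgn and Prelp stay below 1. The part of subcluster 1 in the ratios over all DF-like cells was not tested beyond this.

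**Figure D3:**
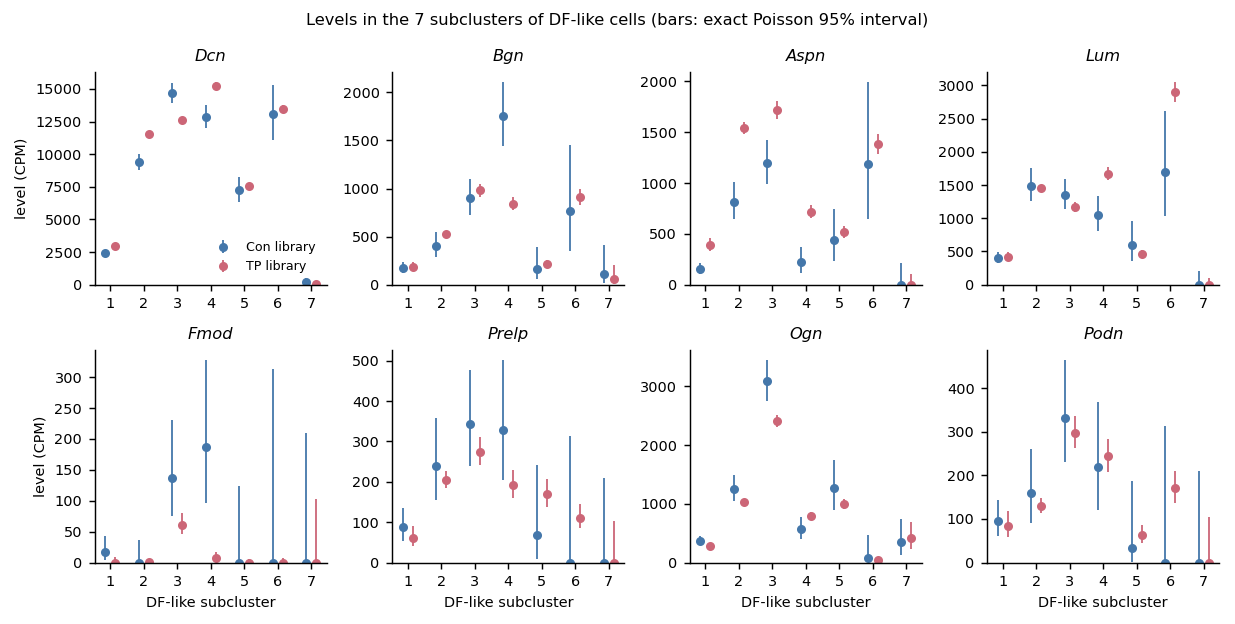
Level (CPM) of each gene in the 7 subclusters of DF-like cells, for the Con (blue) and TP (red) libraries, with exact Poisson 95% intervals. Subclusters 1 and 7 lie low for most genes, Ogn peaks in subcluster 3 at 3093 CPM in Con and 2404 CPM in TP, and Lum peaks in subcluster 6 at 1697 CPM and 2901 CPM.

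Among the other 5 subclusters the members took different profiles. Subcluster 2, led by Cthrc1 and C6, had 19 Con and 161 TP cells and 811 CPM of Aspn in Con against 1538 CPM in TP. Subcluster 3, led by Angptl7 and Myoc, had 25 and 104 cells and was richest in Ogn, and it held 53 of the 60 Fmod UMIs of DF-like cells in TP. Its Fmod level was 137 CPM in Con and 61.2 CPM in TP, while subcluster 4 had 188 CPM in Con from 12 UMIs and 7.29 CPM in TP from 5.

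Subcluster 4, led by Agt and Inmt, had 17 and 87 cells, and was highest in Dcn in TP with 15235 CPM. Bgn was 1752 CPM there in Con and 841 CPM in TP, a ratio of 0.480 (0.391 to 0.593). Subcluster 5, led by Sema3e, Sostdc1 and Corin, had 7 and 73 cells and less Lum, 604 CPM and 464 CPM. Corin, Rspo3 and Hhip, among its leading 10 genes, are DPC markers in the list used here. These cells were kept in the set without subclusters 1 and 7, as were those of subcluster 2. Tnmd, among the leading 10 genes of subcluster 2, is a DSC marker in the lists used here. Subcluster 6, led by Igfbp2, Grem1 and Stmn2, had 3 and 54 cells, with the most Lum and almost no Ogn, 84.8 CPM from 1 UMI in Con and 38.4 CPM in TP. Aspn was higher in TP in each of subclusters 1 to 6, by ratios of 1.16 to 3.26, and in subclusters 5 and 6 the interval held 1. Ogn had ratios of 0.740 to 0.829 in subclusters 1, 2, 3 and 5, with intervals that held 1 in subclusters 2 and 5, and a ratio of 1.42 (1.01 to 2.05) in subcluster 4.

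DF-like cells often carried several members at once. After thinning to 1000 UMIs, 42 Con and 33 TP cells were left out as too shallow. Of the remaining DF-like cells 73.4% (66.0 to 79.9) in Con and 92.0% (89.6 to 94) in TP had a Dcn UMI, which was 73.0% and 92.7% unthinned. For Aspn the shares were 29.0% (22.3 to 36.5) and 51.3% (47.3 to 55.3), and for Ogn 43.2% (35.6 to 51.0) and 46.2% (42.2 to 50.3). The median cell had UMIs of 2 members in Con and 3 in TP. Without subclusters 1 and 7 it was 4 members in Con and 3 in TP, and each of those 70 Con and 478 TP cells had at least 1. Of these cells, 53 in Con and 305 in TP had both Dcn and Lum, and 16 and 172 had Dcn but no Lum. Nearly all of them thus had Dcn in both libraries. Of the DF-like cells with Lum, 68 of 71 in Con and 334 of 337 in TP also had Dcn.

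The follicle mesenchyme was examined next. In DSC-like cells Bgn was lower in TP, at a ratio of 0.842 (0.767 to 0.925), and Ogn at 0.440 (0.35 to 0.548). Dcn was 164 CPM in Con and 539.6 CPM in TP, a ratio of 3.29 (2.73 to 3.98), and Prelp had a ratio of 2.46 (1.68 to 3.65). Aspn had a ratio of 1.44 (1.18 to 1.76), and for Fmod, at 0.819 (0.494 to 1.34), the interval held 1. The 2 of 6 tested members at least 2-fold higher in TP, Dcn and Prelp, compare with 4.02% of 6172 genes, and the 1 at least 2-fold lower, Ogn, with 6.5%. The median log2 ratio was 0.14 over the 6 members and −0.10 over all genes.

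Genes of DFs were higher together with Dcn in DSC-like cells of TP. Dpt, a DF marker, had 19.1 CPM in Con and 132 CPM in TP, Col1a1 had 2286 CPM and 7219 CPM, and the 10 DF markers summed to 7228 CPM and 18932 CPM with none at 0. Dcn and Lum UMIs stood at 9.32 to 1 in TP, where the ratio in DF-like cells was 8.16 to 1. After thinning, 10.0% (6.94 to 13.8) of DSC-like cells in Con had a Dcn UMI, against 10.7% of IB_IRS-like cells. The Con level of 164 CPM was 1.49-fold (1.26 to 1.76) that of IB_IRS-like cells. It lay below the 185 CPM of lymphocyte-like cells but above the 65.4 CPM of myeloid-like and 66.4 CPM of EC-like cells. The classes used as background thus did not agree, and the Con value was not judged against them. In TP the thinned share with Dcn was 19.5% (13.2 to 27.3) against 4.08%. Median depths were 2520 and 4472 UMIs in DSC-like cells and 1778 and 3614 UMIs in IB_IRS-like cells. How far DF cells or their RNA enter the DSC-like value was not tested.

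DPC-like cells expressed Bgn as their main member. Bgn had 1827 UMIs in Con against 1787 for TP, at a ratio of 1.33 (1.24 to 1.42), and made up 57.6% and 80.3% of the members' UMIs in this class. Ogn had a ratio of 0.301 (0.241 to 0.372) and Dcn 0.401 (0.345 to 0.465), and Aspn had a ratio of 2.03 (1.27 to 3.29) from 32 and 48 UMIs. Of the 4 members tested, 1 was at least 2-fold higher in TP, against 3.78% of 12778 genes, and 2 at least 2-fold lower, against 7.65%. Dcn and Aspn, however, were detected in this class in shares near or below those of IB_IRS-like cells. For Aspn 0.170% of thinned cells in Con and 0.317% in TP had a UMI, against 0.173% and 0.233% of IB_IRS-like cells, so the counts past 2-fold describe few members. Subclusters of this class differed in size between the libraries. The Sfrp2-led subcluster with most of the Ogn held 1404 of the 3889 Con and 235 of the 1346 TP cells, and its own Ogn ratio was 0.570 (0.444 to 0.723). The subcluster led by Adamts18 and Kcnj3 held 57 and 531 cells, with 141 CPM and 247 CPM of Bgn. Of thinned DPC-like cells 6.91% and 2.94% had a Dcn UMI, below the 10.7% and 4.08% of IB_IRS-like cells. As the Dcn of IB_IRS-like cells was not tested as free RNA, these shares do not settle whether DPC-like Dcn is background.

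Decorin was also found in epithelial cells of the hair bulb, without the rest of the family. The IB_GL-like cluster, led by Kcnip1, Shh and Tnf, held 1251 Con and 380 TP cells. Shh, the signal that matrix cells send to the papilla, had 283 CPM in Con and 277 CPM in TP there. Dcn in these cells had 3755 UMIs in Con and 6183 in TP, a ratio of 2.12 (2.04 to 2.21), against 1.58% of 9809 genes at least 2-fold higher and 2.48% at least 2-fold lower. It was 1 of 2 members tested, and the other, Bgn, had 7.02 CPM and 10.3 CPM. After thinning, 29.2% (26.7 to 31.8) of IB_GL-like cells in Con and 49.9% (44.7 to 55.0) in TP had a Dcn UMI, which was 44.8% and 70.0% unthinned. In lymphocyte-like cells, which should lack Dcn, the thinned share was 15.6% (11.0 to 21.1) in Con and 5.56% (1.83 to 12.5) in TP, at medians of 1504 and 1995 UMIs against 2546 and 7883 in IB_GL-like cells.

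Of the DF markers only Col1a1 and Dpt are given for IB_GL-like cells. Whether the rest of that list accompanied Dcn there is not shown. Fbln1, also a DF marker, was the gene most like Dcn over the named classes (r = 0.835). Col1a1 in IB_GL-like cells was 14.5 CPM in Con and 39.0 CPM in TP, close to the 17.4 CPM and 35.1 CPM of IB_IRS-like cells, where Dcn was 110 CPM and 84.6 CPM. Dpt had no UMI in Con and 4 in TP. Lum had 3 UMIs in Con and 7 in TP, so that Dcn and Lum UMIs stood at 1252 to 1 in Con and 883 to 1 in TP. In DF-like cells the same ratio was 8.59 to 1 and 8.16 to 1. Of the thinned IB_GL-like cells with Dcn, 0 of 356 in Con and 1 of 189 in TP also had Lum. Cycling cells, with a thinned Dcn share of 16.4% in Con and 22.7% in TP, had Dcn to Lum at 343 to 1 in Con and 139 to 1 in TP, and the Ntn1- and Edar-led cluster 402 to 1 and 52.8 to 1. In IB_IRS-like cells, used as the measure of free RNA, it was 173 to 1 and 30.7 to 1. Whether the Dcn of those cells is free RNA alone was not tested.

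**Figure D4:**
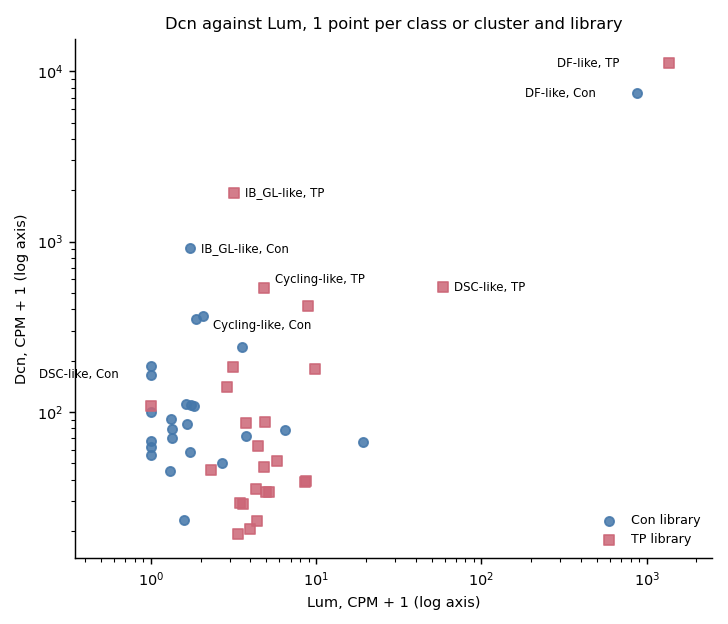
Dcn against Lum, each as CPM + 1 on log axes, with 1 point for each class or unnamed cluster in the Con (circles) and TP (squares) libraries. DF-like cells lie at the top right, at 868 CPM of Lum in Con and 1371 CPM in TP, and IB_GL-like cells lie high at the left, with Dcn at 910 CPM and 1931 CPM and Lum below 3 CPM.

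Away from the bulb, the low Dcn of other epithelial classes differed between the libraries in its company. Basal cells of the interfollicular epidermis (IFE_B-like) had 78.2 CPM of Dcn in Con and 34.1 CPM in TP, with 234 Dcn UMIs to 1 of Lum in Con and 10.3 to 1 in TP. OB-like cells had 83.3 CPM and 46.1 CPM, with 126 to 1 and 12.1 to 1, and upper follicle (uHF-like) cells 71.1 CPM and 28.3 CPM, with 25.9 to 1 and 11.5 to 1. In TP all 3 ratios lay near the 8.16 of DF-like cells, while in Con those of IFE_B-like and OB-like cells lay far above the 8.59 of DF-like cells, on 2 and 1 Lum UMIs. Thinned shares of cells with Dcn were 8.28% and 3.42% in IFE_B-like and 9.51% and 3.29% in OB-like cells, all below the share in IB_IRS-like cells of the same library, although in Con OB-like cells the interval (7.12 to 12.4) held it. None of these values was read as expression. Nor were they shown to be background, since the Dcn of IB_IRS-like cells was not tested as free RNA.

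**Figure D5:**
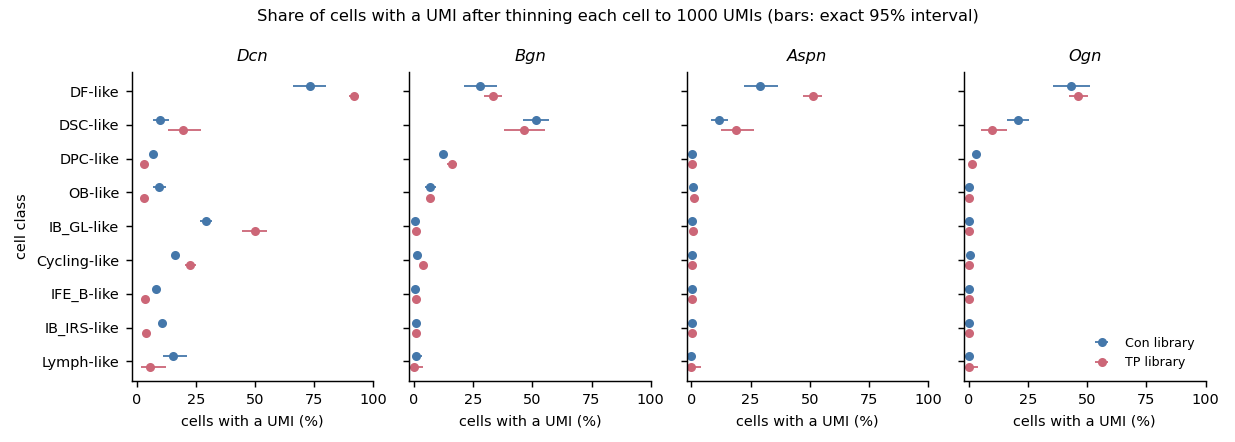
Share of cells (%) with a UMI of Dcn, Bgn, Aspn or Ogn after thinning every cell to 1000 UMIs, for 9 classes in the Con (blue) and TP (red) libraries, with exact 95% intervals. IB_GL-like cells have a share of Dcn above that of IB_IRS-like and lymphocyte-like cells in both libraries (49.9% against 4.08% and 5.56% in TP), and Bgn, Aspn and Ogn lie near 0 in most epithelial classes.

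Levels over classes were compared with those of all genes with at least 200 UMIs, by Pearson's r of log2(CPM + 10) over 32 points, the 16 named classes in each library. The points share their libraries and depths, so r is a description. Most like Dcn were Fbln1 (r = 0.835), Has2 (0.822) and Sema3b (0.815), all below the r of the 3 genes most like each other member. Bgn was most like Fbln2 (0.961), Col4a1 (0.948) and Mfap2 (0.947), Aspn most like Cilp (0.976), Zfp469 (0.975) and Itgbl1 (0.973), and Lum most like Rbp4 (0.986), Igfbp6 (0.979) and Mmp27 (0.975). Fmod was most like Omd (0.965), Srpx2 (0.95) and Dpep1 (0.948), of which Omd is a relative of the family. Prelp was most like Lims2 (0.972), Ecm2 (0.940) and Fmo1 (0.933), Ogn most like C1rb (0.985), Zfp469 (0.973) and Eya4 (0.969), and Podn most like Medag (0.973), Col6a6 (0.972) and Igfbp6 (0.969). Among the members, Lum and Podn were the closest pair (0.95), followed by Aspn and Ogn (0.949), while Dcn and Bgn had the lowest r (0.465). Over 38 points of 19 clusters, mostly epithelial and chosen after the Dcn values had been seen, Dcn was most like Myb (0.907), Prps2 (0.90) and AU020206 (0.892). The set includes an unnamed cluster led by Hbb-bs, Hba-a1 and Acta1, with Myb among its leading 10 genes. Its median depth was 735 UMIs in Con and 651 in TP, and its Dcn level was 240 CPM and 177 CPM.

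The 9 other genes of the family were mostly scarce. In all kept cells 6 of them had at least 50 UMIs, of which Ecm2 and Nyx passed 2-fold upward in TP and Podnl1 passed it downward, named here after their values were seen. Of all genes 8.12% passed upward and 10.5% downward. Ecm2 had 4.99 CPM in Con and 12.9 CPM in TP, and Podnl1 1.26 CPM and 0.467 CPM. Chad and Podnl1 had no UMI in DF-like cells of either library, which allows up to 5.31 CPM in Con and 0.607 CPM in TP. In DF-like cells the 2 that could be compared, Ecm2 and Omd, had ratios of 1.37 (1.13 to 1.67) and 0.831 (0.605 to 1.17).

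Of 15 genes for the linker and for chondroitin or dermatan sulphate with at least 50 UMIs in DF-like cells, Chpf, a chondroitin polymerase subunit, was at least 2-fold higher in TP, with 24.8 CPM in Con and 70.5 CPM in TP, against 4.13% of all genes. Csgalnact1, which starts the chain, was at least 2-fold lower, with 181 CPM and 62.2 CPM, against 9.21% of all genes. Without subclusters 1 and 7 its ratio was 0.831 (0.520 to 1.41) and no gene of this list was at least 2-fold lower, while Chpf and Chpf2 were at least 2-fold higher, Chpf2 from 3 UMIs in Con. The median ratio of the 15 was 1.07, and with TMM factors, tried after the results were seen, 4 of them were at least 2-fold higher, against 9.57% of all genes. Of the keratan sulphate enzymes 2 were counted and neither passed 2-fold, B3gnt2 with 35.4 CPM and 26.5 CPM and B4galt1 with 163 CPM and 208 CPM. In all kept cells none of 22 genes of the first list was at least 2-fold higher and 3 were at least 2-fold lower (Pxylp1, Csgalnact1 and Chst7), and of 6 keratan sulphate enzymes none was higher and B4galt4 lower, against 8.12% and 10.5% of all genes. With TMM factors B4galt4 no longer passed.

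Of 12 genes for collagens that members bind and for Lox, which crosslinks them, 8 were at least 2-fold higher in the TP library, Lox among them, against 8.12% of all genes. None of the 12 passed 2-fold upward within DF-like cells, against 4.13%. With TMM factors within the class 5 of the 12 were at least 2-fold higher there, namely Col1a1, Col1a2, Col3a1, Col5a2 and Lox, against 9.57% of all genes. In DF-like cells Col1a2 had 21200.5 CPM in Con and 38054 CPM in TP, a ratio of 1.79 (1.76 to 1.83), and Col1a1 a ratio of 1.75 (1.71 to 1.78), which are above the 1.5 of Dcn. Col12a1 had 77.9 CPM and 39.1 CPM and Col14a1 783 CPM and 561 CPM. Without subclusters 1 and 7 the median ratio of the 12 was 0.860, where it was 1.14 with them.

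Among proteases that cut members or their partners, 5 of 9 were at least 2-fold higher in the whole TP library, against 8.12% of all genes, and 1 of 8 in DF-like cells, against 4.13%. With TMM factors the counts were 6 of 9 and 4 of 8, against 11.1% and 9.57% of all genes. The 1 gene was Adamts4, with a ratio of 5.94 (1.60 to 49.7) from 2 UMIs in Con and 104 in TP, and without subclusters 1 and 7 its ratio was 3.42 (0.922 to 28.6), an interval that held 1. Mmp14, which cleaves decorin and lumican, had 372 CPM in Con and 667 CPM in TP, and Tll1, of the procollagen C-proteinases that trim biglycan, had 79.7 CPM and 47.4 CPM. Of 9 ligands and receptors tested in DF-like cells, Tgfb2, a growth factor that decorin and asporin bind, was at least 2-fold higher, with 76.2 CPM and 209.5 CPM, against 4.13% of all genes. With TMM factors Egfr passed as well, which made 2 of 9, against 9.57%. Igf1r, a receptor for which decorin is a ligand, had 259 CPM and 183 CPM, Cd44 128 CPM and 112 CPM, and Egfr, which decorin also binds, 1111 CPM and 1742 CPM. Without subclusters 1 and 7 the ratio was 1.02 (0.769 to 1.39) for Igf1r. For Cd44 it was 1.97 (1.22 to 3.41), from 17 UMIs in Con. Over all DF-like cells the Cd44 ratio was 0.876 (0.685 to 1.14), an interval that held 1.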

How the data were processed

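Only Con and TP, 2 libraries of dorsal skin cells, entered; TP + Ab is not analysed here. Skin was pooled and dissociated by the authors for droplet sequencing, and reads went through Cell Ranger 8.0.1 (mouse build mm10). The deposited values are raw UMI counts per gene and barcode, not normalized. The members and all gene lists were chosen with earlier results of these data known.

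Barcodes needed between 200 and 8000 genes and no more than 10% mitochondrial UMIs, and the 7.5% of barcodes most like artificial doublets were removed per library by a rewritten DoubletFinder procedure. Seurat 5.3.0 in R 4.3.3 integrated both libraries by reciprocal PCA (2000 variable genes, 30 components) and clustered them at resolution 1, and subclusters used 20 components and resolution 0.3. The members, their relatives, the pathway lists and all collagens were kept out of the clustering features. A cluster took a class name where at least 3 fixed markers were detected, the score reached 1.25 and its leading 10 genes did not favour the markers of a different class. Cells were clustered here again, so names can differ from the study's.

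Python 3.11.15 (numpy 2.4.6, scipy 1.17.1, pandas 2.3.3) summed UMIs per class. Intervals are exact Poisson for levels, exact conditional binomial for ratios and Clopper-Pearson for shares. Ratios were counted at 2-fold over genes whose UMIs reached 50 when the libraries were added, and edgeR 4.0.16 gave TMM factors only. The interval and call steps were tested on simulated data. Alternatives were TMM factors, Con class shares, doublets kept, all barcodes, thinned cells, means of ln(counts per 10000 + 1), a minimum of 10 UMIs, and DF-like cells without subclusters 1 and 7. The text names the 8 members, the 3 genes most like each, and from each pathway list genes counted past 2-fold or with the 2 largest or smallest ratios in DF-like cells. Sequences and positions are from RefSeq on GRCm38.p6.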

Additional observations from a re-analysis of the deposited data

Results flagged for a closer look

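DF-like cells were compared with DPC-, DSC-, IB_GL-, OB- and EC-like cells for members with at least 50 UMIs in both classes, and 2 genes had ratios whose intervals lay on opposite sides of 1. The differences between classes were not tested, since each condition is 1 library. Dcn had a TP over Con ratio of 1.5 in DF-like cells and of 0.401 in DPC-like cells. Without subclusters 1 and 7 its ratio in DF-like cells was 1.02, with an interval that held 1. In OB-like cells its ratio was 0.553. In DPC-like and OB-like cells the thinned share of cells with Dcn lay below that of IB_IRS-like cells, 6.91% and 9.51% against 10.7% in Con. The Dcn of IB_IRS-like cells was not tested as free RNA, so these ratios were read neither as expression nor as background. Bgn had a ratio of 1.16 in DF-like cells and of 0.842 in DSC-like cells, and without subclusters 1 and 7 the ratio in DF-like cells was 0.791, in the same direction as in DSC-like cells.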

How the results depend on the processing

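Each condition is 1 pooled library, so animals and libraries cannot be told apart from treatment, and counting intervals understate the error. Depth also differs between libraries, and free RNA was judged only from classes that should lack a gene.

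For all kept cells, TMM factors gave ratios of 3.19 for Dcn, 1.77 for Bgn, 9.48 for Aspn, 12 for Lum, 4.67 for Prelp and 3.38 for Ogn. Con class shares gave 1.24 for Dcn, 1.14 for Bgn, 1.88 for Aspn, 2.09 for Lum, 1.51 for Prelp, 0.653 for Ogn (reversed) and 1.40 for Podn. Keeping doublets gave 11.0 for Lum, and using all barcodes 2.58 for Dcn. Means over cells of ln(counts per 10000 + 1) gave 0.955 for Dcn (reversed), 2.00 for Bgn, 6.31 for Aspn, 9.14 for Lum, 4.99 for Prelp, 2.17 for Ogn and 7.94 for Podn. For DF-like cells, TMM factors gave 1.97 for Dcn, 1.52 for Bgn, 3.19 for Aspn, 2.07 for Lum, 1.35 for Prelp, 1.29 for Ogn and 1.40 for Podn. Without subclusters 1 and 7 the ratios were 1.02 for Dcn, 0.791 for Bgn (reversed), 1.63 for Aspn, 1.15 for Lum, 0.754 for Prelp, 0.681 for Ogn and 0.831 for Podn. Thinning gave 1.67 for Dcn, and means of ln values 1.61 for Bgn, 1.47 for Prelp, 1.27 for Ogn and 1.74 for Podn. In each case the cause was not tested. TMM factors of 0.840 over all cells and 0.763 in DF-like cells shift the median log2 ratio of all genes from −0.23 to 0.02 and from −0.24 to 0.15.

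In DF-like cells 379 genes passed 2-fold upward in TP, 900 with a minimum of 10 UMIs and 878 with TMM factors, and 845, 2057 and 316 were lower. Over all cells 1836 were lower, and 2900 or 1065 under the same settings. With a minimum of 10 UMIs the counts became 819 from 483 higher and 1862 from 978 lower in DPC-like, 619 from 248 and 1373 from 401 in DSC-like, and 395 from 155 and 879 from 243 in IB_GL-like cells. No paired analysis was possible because each group has 1 library.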
